A study of Mus musculus with 2 samples.

Results

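Local glucocorticoid activation and the response to it were followed through 8 genes, Hsd11b1, Nr3c1, Nr3c2, Fkbp5, Tsc22d3, Per1, Zbtb16 and Sgk1, in Nestin-GFP+ (Nes-GFP+) cells of the adult mouse brain and lung. The genes were chosen by name. All 8 had counts in both libraries, among 23906 genes with counts in brain, 23156 in lung and 25814 in either. Hsd11b1 had been seen among the leading genes of lung pericytes in these data before the list was made, so its level in those cells chose the list and is given only as a description. Cells were sorted for GFP from mice about 6 weeks old, and the brain group and the lung group each consisted of 1 library. Both groups carried the same transgene, in which Nestin regulatory elements drive GFP, and neither received a treatment. The labels give the strain as C57BL/6, whereas the study's methods describe wild-type CD1 mice or a cross of CD1 with C3H mice, to which transgenic lines were bred. Each library was 1 biological replicate, and the number of animals pooled in it is not given in the sources used here. The sort kept GFP+ cells only, so the levels describe those cells and not the whole organ.

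Glucocorticoids act only in their active form, and Hsd11b1 encodes the enzyme that turns the inactive keto form back into active corticosterone inside the cell. It draws its NADPH from H6pd, an enzyme of the same compartment, while Hsd11b2 carries out the opposite reaction. The active hormone binds the glucocorticoid receptor (Nr3c1) or the mineralocorticoid receptor (Nr3c2), both held by heat shock protein chaperones until the hormone arrives. The bound receptor enters the nucleus and induces a set of genes that in many tissues includes the other 5. Fkbp5 is a co-chaperone that lowers the receptor's affinity, Tsc22d3 (also called Gilz) an anti-inflammatory regulator, Per1 a clock gene, Zbtb16 a zinc finger repressor and Sgk1 a kinase that controls ion transport and cell survival. Glucocorticoids are known for their part in lung maturation, in restraining inflammation and in the feedback of the stress response on the brain.

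The genes lie apart in the genome (GRCm38, GENCODE M21). Hsd11b1 is at chr1:193221634-193264075 on the minus strand and Nr3c2 at chr8:76899442-77245012 (plus). Fkbp5 is at chr17:28399094-28517527 (minus), Tsc22d3 at chrX:140539528-140600659 (minus) and Per1 at chr11:69095217-69109960 (plus). Zbtb16 is at chr9:48654297-48836222 (minus) and Sgk1 at chr10:21882184-21999903 (plus). Nr3c2 shares 247 exonic bases with Gm10649 on the opposite strand. Whether the counting used the strand was not stated, so reads from those bases cannot be told apart.

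RefSeq promoter windows (GRCm38.p6), from 250 bases before a start to 50 after it, were found for 6 of the 8 genes, 14 windows in all. Nr3c1 and Zbtb16 had no entry. The classical palindromic glucocorticoid response element, made of the 2 arms AGAACA and TGTTCT with 3 bases between them, was present in 3 of 32851 windows (0.00913%), and 1 of the 3 belonged to Sgk1. A looser form of it, GNACA and TGTNC with 3 bases between them, which includes every match of the longer form, was present in 156 windows (0.475%) and in no further window of the 8 genes. The E-box CACGTG, the element through which clock proteins bind, was present in 2349 windows (7.15%) and in 3 of the 14, which belonged to Sgk1, Per1 and Fkbp5. Both strands were searched for each motif. A match describes the letters and is not a measured binding site, and many receptor binding sites lie far from a start. The stretches before the start of the windows that held either motif are shown from 5′ to 3′ on the strand of the gene, with the response element and the E-box in capitals. They are chr10:21993640-21993889 (plus) for Sgk1, chr11:69098699-69098947 (plus) for Per1 and chr17:28486150-28486399 (minus) for Fkbp5.
Sgk1: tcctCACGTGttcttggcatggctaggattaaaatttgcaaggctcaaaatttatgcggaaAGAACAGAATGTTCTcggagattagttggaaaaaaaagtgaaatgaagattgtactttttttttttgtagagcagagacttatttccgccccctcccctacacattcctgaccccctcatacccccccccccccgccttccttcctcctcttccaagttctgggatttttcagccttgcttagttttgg
Per1: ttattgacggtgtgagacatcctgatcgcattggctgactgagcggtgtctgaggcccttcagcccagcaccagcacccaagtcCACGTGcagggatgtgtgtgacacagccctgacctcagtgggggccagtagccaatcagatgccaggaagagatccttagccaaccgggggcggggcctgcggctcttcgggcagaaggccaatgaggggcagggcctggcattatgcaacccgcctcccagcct
Fkbp5: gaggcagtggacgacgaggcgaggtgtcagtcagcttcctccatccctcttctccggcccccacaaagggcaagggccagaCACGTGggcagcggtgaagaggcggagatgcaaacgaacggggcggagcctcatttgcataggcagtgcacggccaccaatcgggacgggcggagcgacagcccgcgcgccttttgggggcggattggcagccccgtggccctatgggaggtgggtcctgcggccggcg
The only response element among them stands at bases 189 to 175 before that start of Sgk1. The E-boxes end 241 bases before the start in Sgk1, 161 in Per1 and 164 in Fkbp5.

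The filter in the study's methods, applied here to the 4640 brain and 5981 lung barcodes deposited, left 4151 brain cells (median 4209 unique molecular identifiers, UMIs) and 5608 lung cells (median 5585 UMIs). The study's own maps show all of those barcodes, so the cells analysed here are a smaller set. Of their barcodes, 15 were shared by both libraries. Clusters were named from marker lists, and names carry "-like" for that reason. The lung pericyte-like class held 1762 cells (31.4% of the lung cells) with 9013286 UMIs, and 10 of 10 pericyte markers were more than 2-fold higher in it than in the other named lung classes. The brain mural-like class was much smaller, with 169 cells, 467408 UMIs and a median of 2559 UMIs per cell. In it, 10 of 10 mural markers were more than 2-fold higher than in the other named brain classes. Both classes were named from these same lists, so the 2 counts largely follow from the naming. Lamc3 of the pericyte list (3.58 CPM) and Anpep of the mural list (5.72 CPM) had under 10 CPM over both sides. The T cell-like class also held macrophage genes among its leading genes (Tyrobp, Laptm5, Ccl6) and is a mixed immune class, with a median of only 1992.5 UMIs. The 35 epithelial-like cells were led by Ccl21a, Krt5, Krt14 and MHC class II genes, not by surfactant genes. Unnamed clusters held 498 brain cells and 1035 lung cells.

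Levels are given as counts per 1000000 UMIs of a class (CPM), with the exact 95% Poisson interval in brackets, or the UMI count where it is small. With 1 library per group there is no estimate of the spread between animals, and cells of 1 library are not replicates. The intervals therefore cover counting error only, and no test was made. Organ, dissociation and library differ together between brain and lung, and cannot be told apart. Where a class had 0 UMIs, the limit given is the level of 3 UMIs.

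Hsd11b1 was at 934 CPM (914 to 954) in lung pericyte-like cells, from 8414 UMIs. This was the highest of all named classes in both libraries. The lung cycling class followed with 391 CPM (366 to 417), and the mixed T cell-like class with 88.2 CPM (61.8 to 122). Endothelial-like cells were at 22.9 CPM, matrix fibroblast-like cells at 18.6 CPM, myofibroblast-like cells at 11.7 CPM and smooth muscle-like cells at 8.68 CPM (4 UMIs). In that order, these classes also held 216, 120, 322 and 8 UMIs of the pericyte marker Higd1b. The part of pericyte RNA in their Hsd11b1 levels was not tested. Below the pericyte-like class, which is given as a description only, the intervals of the cycling, T cell-like and endothelial-like classes did not overlap with each other, whereas endothelial-like overlapped with matrix fibroblast-like cells and myofibroblast-like with smooth muscle-like cells. Schwann-like cells had 1 UMI, and epithelial-like cells had 0, which allows at most 9.33 CPM. Unnamed cluster 9, which was led by surfactant genes, was at 18.6 CPM (8 UMIs). In the plot of Hsd11b1 by class the lung pericyte-like point stands to the right of all others.

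**Figure D1:**
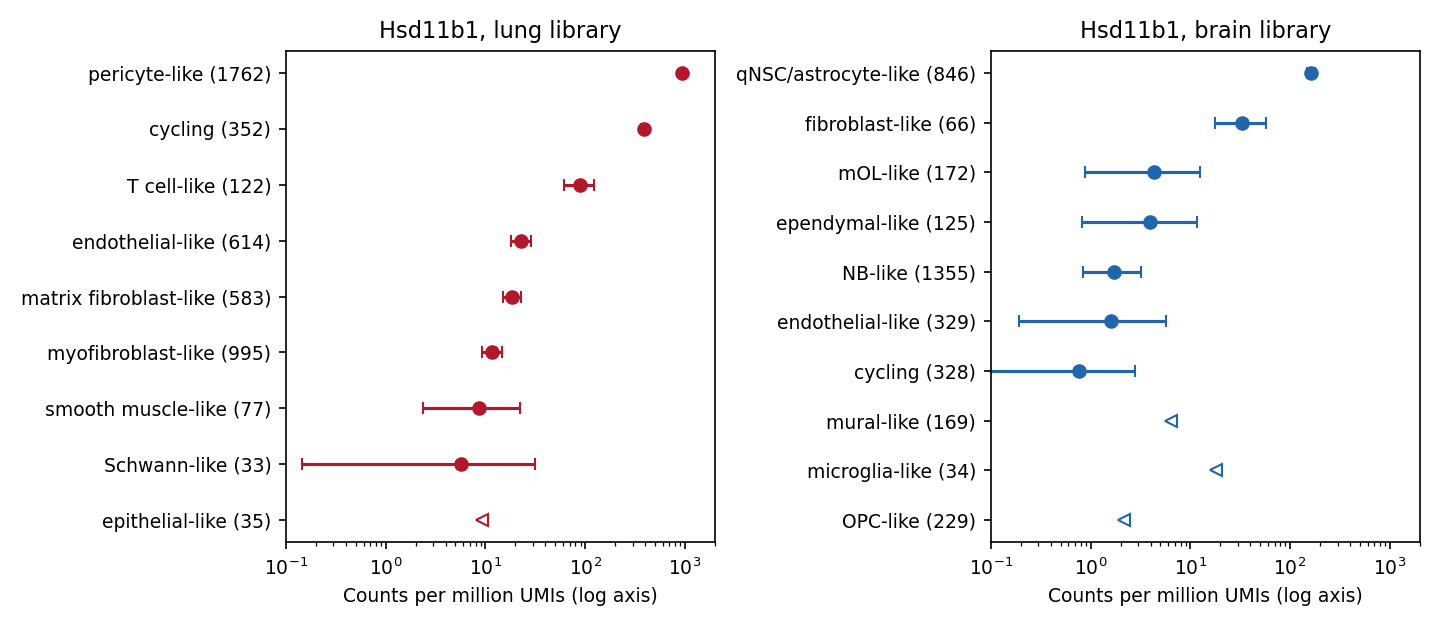
Hsd11b1 level in each named class of the lung (left) and brain (right) library, in counts per 1000000 UMIs on a log axis, with the number of cells in brackets beside each class. Points are class levels, bars exact 95% Poisson intervals (counting error only), and open triangles the level of 3 UMIs for classes with 0 UMIs; lung pericyte-like cells stand highest at 934 CPM and brain mural-like cells had 0 UMIs.

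In the brain, Hsd11b1 lay mainly in 1 class that joined astrocyte-like and quiescent neural stem cells (qNSC), called the astrocyte class for short. The qNSC/astrocyte-like class held 536 of the 569 Hsd11b1 UMIs of the brain library, at 162 CPM (149 to 176). Fibroblast-like cells followed with 33.2 CPM (13 UMIs), and no other brain class exceeded 4.32 CPM. Mural-like, OPC-like and microglia-like cells had 0 UMIs, which allows at most 6.42, 2.15 and 18.1 CPM. Within the astrocyte class, cluster 2 (led by Htra1, Cxcl14 and Aldoc) held 466 of the 536 UMIs and was at 260 CPM. Cluster 5 (led by Thbs4 and Gfap) was at 43.3 CPM and the shallow cluster 7 at 56.4 CPM. The ratio of cluster 2 to cluster 5 was 6.00 (4.49 to 8.18). Lung pericyte-like cells stood 5.76-fold (5.28 to 6.30) above the astrocyte class taken whole.

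The pericyte-like class over the other named lung classes together gave a ratio of 14.99 (14.1 to 15.9) for Hsd11b1, from 934 against 62.3 CPM. Of the 1194 UMIs on the other side, 895 came from the cycling class, and without that class, an alternative added after seeing the data, the ratio was 52.7. Those UMIs were themselves unevenly spread. Cycling cluster 7, whose second best marker list was that of pericytes, held 892 of them (635 CPM), and cycling cluster 14 held 3 (3.39 CPM). Cluster 7 also held the pericyte marker Higd1b at 2116 CPM, against 31.6 CPM in cluster 14.

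Against brain mural-like cells, the ratio for Hsd11b1 was at least 145, with the mural side set at 3 UMIs. After each cell was thinned to 1000 UMIs, 958 of 1761 pericyte-like cells (54.4%, exact binomial interval 52.0 to 56.7%) had a Hsd11b1 UMI. Among mural-like cells 0 of 164 had one, where 3 cells would be 1.83%. The unthinned share of pericyte-like cells was 91.4%. Lung endothelial-like cells, of nearly the same median depth (5386 against 5245 UMIs), had a thinned share of 1.81% and an unthinned share of 5.70%, and myofibroblast-like cells had thinned 0.804%. Between the endothelial-like classes the lung to brain ratio of Hsd11b1 was 14.4 (3.86 to 121), from 80 against 2 UMIs. It was 4.72 with called doublets removed and 27.4 without the upper limit of genes per cell. Those lung cells also held 216 UMIs of the pericyte marker Higd1b, 0.370 Hsd11b1 UMIs for each, against 0.294 in pericyte-like cells, and the part of pericyte RNA in their level was not tested. Between lung matrix fibroblast-like cells and the fibroblast-like cells of the brain it was 0.561 with an interval that included 1 (0.313 to 1.09), and 1.02 without that upper limit. Pericyte-like and mural-like cells shared some mural markers and differed in others. Lung cluster 0, which holds most pericyte-like cells, had Kcnj8 at 39.7 CPM, against 1701 CPM in brain mural-like cells, and Atp13a5 at 0 against 2559 CPM. Higd1b (3227 against 2071 CPM), Pdgfrb (2075 against 2895 CPM) and Notch3 (585 against 761.6 CPM) were within 2-fold, and Cox4i2 was higher in cluster 0 (3118 against 702 CPM).

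A smaller lung cluster with pericyte markers had little Hsd11b1. Cluster 15 (115 cells), which scored highest for pericytes but too close to smooth muscle to be named, was led by Rgs5, Steap4, Procr and Kcnj8, with Kcnj8 at 1108 CPM and Rgs5 at 13670 CPM, and held Higd1b at 1143 CPM. Its Hsd11b1 level was 10.99 CPM from 6 UMIs, and 110 of its 115 cells had none. Cluster 0 exceeded cluster 15 by 86.1-fold (39.5 to 235). Unnamed cluster 8 (208 cells), which scored between pericytes and smooth muscle and held Acta2 at 5700 CPM, stood between them at 148 CPM.

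Counted per Higd1b UMI, Hsd11b1 kept about the same proportion in clusters 0, 11 and 7, at 0.293, 0.312 and 0.300. The proportion was 0.141 in cluster 8 and 0.00962 in cluster 15. It was 1.12 in the T cell-like class, and in unnamed cluster 16 (98 cells, led by Ptn, C3 and Mmp9) it was 2.19. Matrix fibroblast-like cluster 21 (28 cells, led by Limch1, Cpm and Adh1) had 41 Hsd11b1 UMIs (215 CPM) and no Higd1b UMI. Hsd11b1 there stood 18.8-fold (12.3 to 28.6) above the larger matrix fibroblast-like cluster 1.

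**Figure D2:**
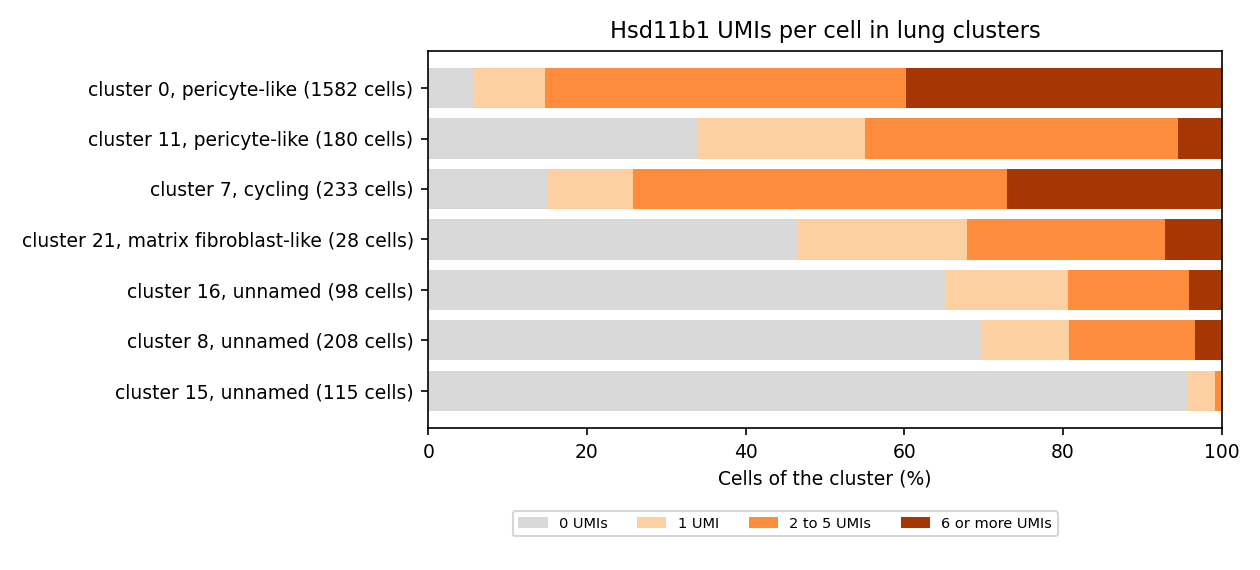
Share of the cells (%) of 7 lung clusters with 0, 1, 2 to 5 and 6 or more Hsd11b1 UMIs, unthinned, as stacked bars that add to 100%. Cells with 6 or more UMIs made up 39.8% of cluster 0, 27.0% of cycling cluster 7 and none of cluster 15, in which 95.7% of cells had 0 UMIs.

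Within the pericyte-like class the median cell held 4 Hsd11b1 UMIs and the highest held 22, while 151 cells (8.57%) held none. The bars of UMIs per cell show that the cells without a UMI were more frequent in cluster 11 (33.9% of 180 cells) than in cluster 0 (5.69% of 1582 cells). Cluster 11 was shallower (median 2332.5 against 5421 UMIs) and led by haemoglobin genes. Its summed Hsd11b1 level was 690 CPM against 946 CPM, a ratio of cluster 0 to cluster 11 of 1.37 (1.22 to 1.54). The part of depth and of haemoglobin RNA in that difference was not tested.

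H6pd, which supplies the cofactor of Hsd11b1, was also highest in lung pericyte-like cells when named classes were taken whole, at 48.8 CPM (44.4 to 53.6). Single clusters were higher, with 136 CPM (89.0 to 200, 26 UMIs) in matrix fibroblast-like cluster 21 and 70.9 CPM (53.8 to 91.6) in unnamed cluster 16. The other named lung classes together were at 17.9 CPM, a ratio of 2.73 (2.37 to 3.15). Brain mural-like cells were at 32.1 CPM (15 UMIs), the highest of the brain classes, and the ratio of lung pericyte-like to brain mural-like cells was 1.52 with an interval that included 1 (0.912 to 2.74). The brain astrocyte class, in spite of its Hsd11b1, had 4 H6pd UMIs (1.21 CPM). Hsd11b2, the opposing enzyme, was at 4.33 CPM in pericyte-like cells and highest in matrix fibroblast-like cells, at 19.8 CPM (106 UMIs).

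The glucocorticoid receptor gene Nr3c1 (chr18:39410545-39519421, minus strand, GRCm38) was found in every named class of both libraries. Its lung levels ran from 80.9 CPM in epithelial-like cells to 266 CPM (256 to 277) in pericyte-like cells, and matrix fibroblast-like cells, at 259 CPM (245 to 273), did not differ from the latter beyond counting error. The ratio of pericyte-like cells to the other named lung classes was 1.28 (1.22 to 1.35). In the brain, Nr3c1 was highest in endothelial-like cells, at 288 CPM (259 to 319), followed by microglia-like cells at 217 CPM and mural-like cells at 195 CPM (157 to 239). The brain range was much wider than that of the lung, since NB-like cells (neuroblasts) were at 6.26 CPM and cycling cells at 23.1 CPM. From endothelial-like down to mOL-like cells (mature oligodendrocytes, 142 CPM), each brain class overlapped with the next. Within the OPC-like class, cluster 12 was at 251 CPM and cluster 14 at 98.8 CPM. Within the mOL-like class, the 31 cells of cluster 18 were at 217 CPM and the 141 shallower cells of cluster 9 at 48.7 CPM. Lung pericyte-like cells stood 1.37-fold (1.11 to 1.71) above brain mural-like cells. Endothelial-like cells went the other way, with a lung to brain ratio of 0.534 (0.467 to 0.612). Thinned to 1000 UMIs, Nr3c1 was found in 22.9% (21.0 to 25.0) of pericyte-like and 20.7% (14.8 to 27.7) of mural-like cells, and at 2000 UMIs in 41.4% (39.0 to 43.8) and 29.8% (22.1 to 38.4), against 71.5 and 36.7% unthinned.

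The mineralocorticoid receptor gene Nr3c2 was near the detection limit in the lung, where no named class exceeded 2.45 CPM and pericyte-like cells had 18 UMIs (1.997 CPM). It was higher in parts of the brain. Fibroblast-like cells were at 33.2 CPM (17.7 to 56.8, 13 UMIs), the astrocyte class at 22.7 CPM (17.8 to 28.4) and endothelial-like cells at 11.1 CPM, whereas NB-like cells had 0 UMIs, which allows at most 0.522 CPM. Mural-like cells had 2 UMIs, so their ratio to lung pericyte-like cells could not be read.

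**Figure D3:**
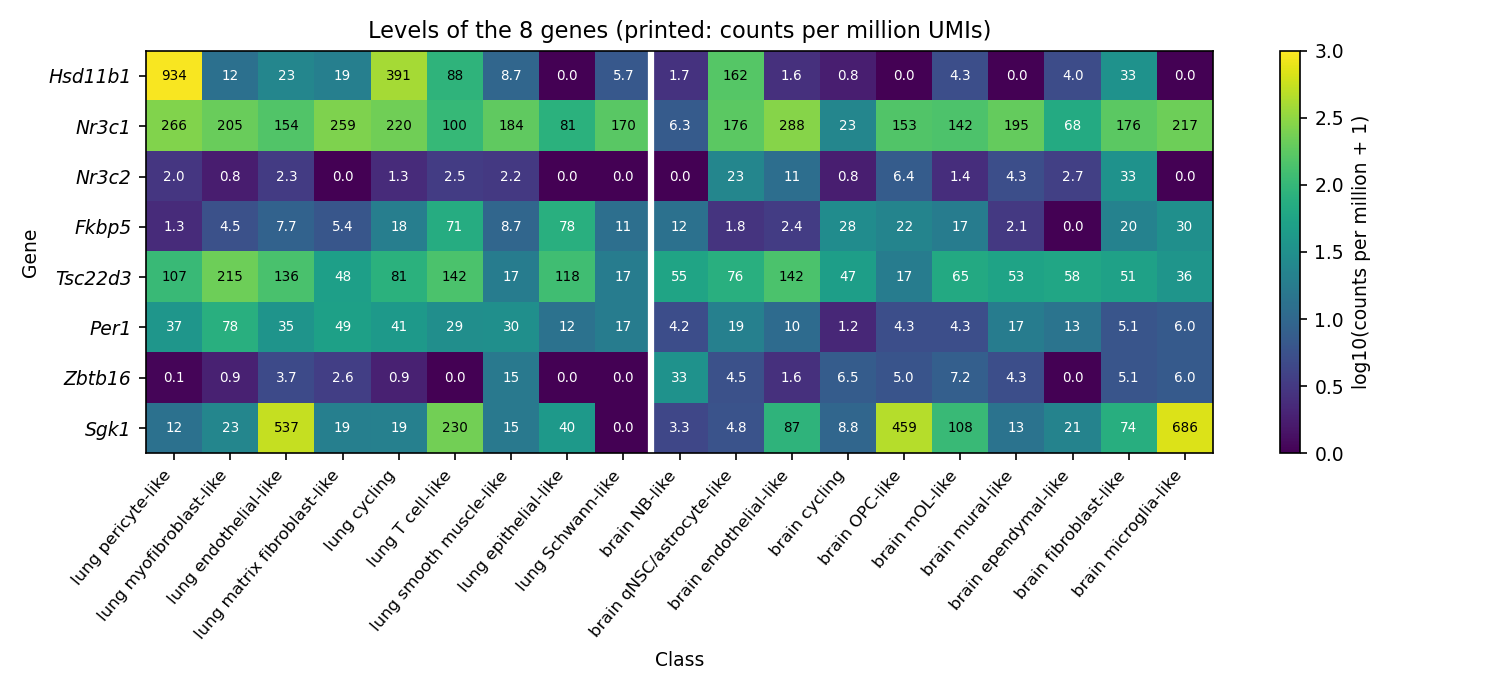
Levels of the 8 genes in the named classes of the lung (left of the white line) and brain (right), ordered by cell number; colour shows log10(CPM + 1) and the printed values are CPM. Hsd11b1 reaches 934 CPM and Sgk1 686 CPM in their highest classes, Nr3c1 is above 80 CPM in all lung classes, and Fkbp5 and Zbtb16 are lowest in the lung pericyte-like column among classes with a UMI.

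Among the response genes, Fkbp5 was scarce in pericyte-like cells. They held 12 UMIs in 9013286 (1.33 CPM, 0.688 to 2.33), the lowest of the named lung classes. Epithelial-like cells were at 77.8 CPM (25 UMIs), T cell-like cells at 71.1 CPM (29 UMIs) and cycling cells at 18.3 CPM, and the ratio of pericyte-like cells to the other named lung classes was 0.136 (0.0689 to 0.243). For cluster 11 alone it was 0.454, from 2 UMIs. In the brain, mural-like cells had 1 UMI, endothelial-like cells 3 and the astrocyte class 6 (1.81 CPM). Among named brain classes the highest levels were in microglia-like cells (30.1 CPM, 5 UMIs), cycling cells (27.7 CPM) and OPC-like cells (21.5 CPM), whose intervals overlapped, and unnamed brain cells were at 29.0 CPM (79 UMIs). Ependymal-like cells had none. The brain mural-like, endothelial-like and qNSC/astrocyte-like intervals all overlapped with that of lung pericyte-like cells.

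Tsc22d3 was at 107 CPM (100 to 114) in pericyte-like cells, in the middle of the lung order. Matrix fibroblast-like cells were at 48.4 CPM and smooth muscle-like cells at 17.4 CPM (8 UMIs). Myofibroblast-like cells were highest at 215 CPM (204 to 226), and among them cluster 2 stood 2.06-fold (1.82 to 2.34) above cluster 4. Cluster 5, of the same class but led by the club cell genes Scgb3a2 and Scgb1a1, was at 106 CPM (90.1 to 124), level with pericyte-like cells. The ratio of pericyte-like cells to the other named lung classes was 0.833 (0.772 to 0.898). Of the 2457 UMIs on the other side, 1430 came from myofibroblast-like cells. In the brain, endothelial-like cells led at 142 CPM, close to the 136 CPM of lung endothelial-like cells. Mural-like cells were at 53.5 CPM (34.6 to 79.0), and the ratio of lung pericyte-like to brain mural-like cells was 1.995 (1.34 to 3.10), just inside the 2-fold limit.

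Per1 was higher in the lung library than in the brain library in each of the matched classes. Lung myofibroblast-like cells were at 77.8 CPM, matrix fibroblast-like cells at 49.2 CPM and pericyte-like cells at 36.8 CPM (33.0 to 41.0), while the highest brain class, qNSC/astrocyte-like cells, was at 19.3 CPM (64 UMIs). The lung to brain ratio was 2.15 (1.08 to 5.03) for pericyte-like over mural-like cells, 3.41 (1.92 to 6.59) for endothelial-like cells and 9.62 (2.64 to 79.8) for matrix fibroblast-like over fibroblast-like cells, the last 2 from 13 and 2 brain UMIs. The last ranged from 5.17 as a mean over cells to 19.8 with a mitochondrial limit of 20%. Per1 is also an immediate early gene. As a sum, the immediate early and stress genes were higher in the lung class of each pair too. Summed over their 16 genes (Fos, Egr1, Jun and others), they were at 3213 CPM in lung pericyte-like and 1311 CPM in brain mural-like cells. The matching sums were 5910 and 2996 CPM in endothelial-like cells, and 13640 and 982 CPM in matrix fibroblast-like and fibroblast-like cells. The part of these genes, and of the dissociation of each organ, in the Per1 difference was not tested.

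Zbtb16 had 1 UMI in the pericyte-like class (0.111 CPM), against 42 UMIs (2.19 CPM) in the other named lung classes. Among named classes it was highest in brain NB-like cells, at 33.0 CPM (28.5 to 38.1, 190 UMIs), above every other named brain class beyond counting error except the 34 microglia-like cells, which had 1 UMI. The shallow unnamed brain cluster 10 was at 54.8 CPM (23.6 to 108) from 8 UMIs. In the lung it was highest in smooth muscle-like cells (15.2 CPM, 7 UMIs), which overlapped with endothelial-like cells (3.72 CPM, 13 UMIs) just at the ends of their intervals.

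Among named classes, Sgk1 was highest in endothelial-like cells in the lung and in microglia-like and OPC-like cells in the brain. Lung endothelial-like cells were at 537 CPM (513 to 562), with 915 CPM in cluster 12 (led by Scn7a, Kdr and Emcn), 495 CPM in cluster 18 and 369 CPM in cluster 3 (led by Vwf). T cell-like cells were at 230 CPM, but 94 UMIs in 11.5% of those cells made up that level. Brain endothelial-like cells were at 87.2 CPM, a lung to brain ratio of 6.16 (5.08 to 7.54). In the brain, microglia-like cells were at 686 CPM (114 UMIs) and OPC-like cells at 459 CPM. The latter came mostly from cluster 14 (led by Enpp6, Gpr17 and Bmp4, genes of committed oligodendrocyte precursors), at 671 CPM (605 UMIs) against 70.8 CPM in the Pdgfra-led cluster 12, a ratio of 9.49 (6.75 to 13.8). The mOL-like class (108 CPM) pooled cluster 9 at 188 CPM (143 to 243) and cluster 18 at 43.9 CPM (25.6 to 70.3), one above and the other below the brain endothelial-like interval (71.7 to 105).

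In pericyte-like cells Sgk1 was at 12.2 CPM (10.0 to 14.7), below the other named lung classes together (120 CPM) at a ratio of 0.102 (0.0836 to 0.124). Of the 2292 UMIs on the other side, 1880 came from endothelial-like and 94 from T cell-like cells. Epithelial-like cells were at 40.4 CPM and myofibroblast-like cells at 23.1 CPM. Cycling, matrix fibroblast-like and smooth muscle-like cells were at 19.2, 18.6 and 15.2 CPM, and Schwann-like cells had 0 UMIs. The ratio of pericyte-like cells to cycling cells was 0.635 and to matrix fibroblast-like cells 0.655, both within 2-fold. To epithelial-like cells it was 0.302. Brain mural-like cells were at 12.8 CPM (6 UMIs), and the ratio of pericyte-like to mural-like cells was 0.951 with a wide interval (0.423 to 2.65). Pericyte-like and mural-like cells both stood below the endothelial-like cells of their own library beyond counting error.

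**Figure D4:**
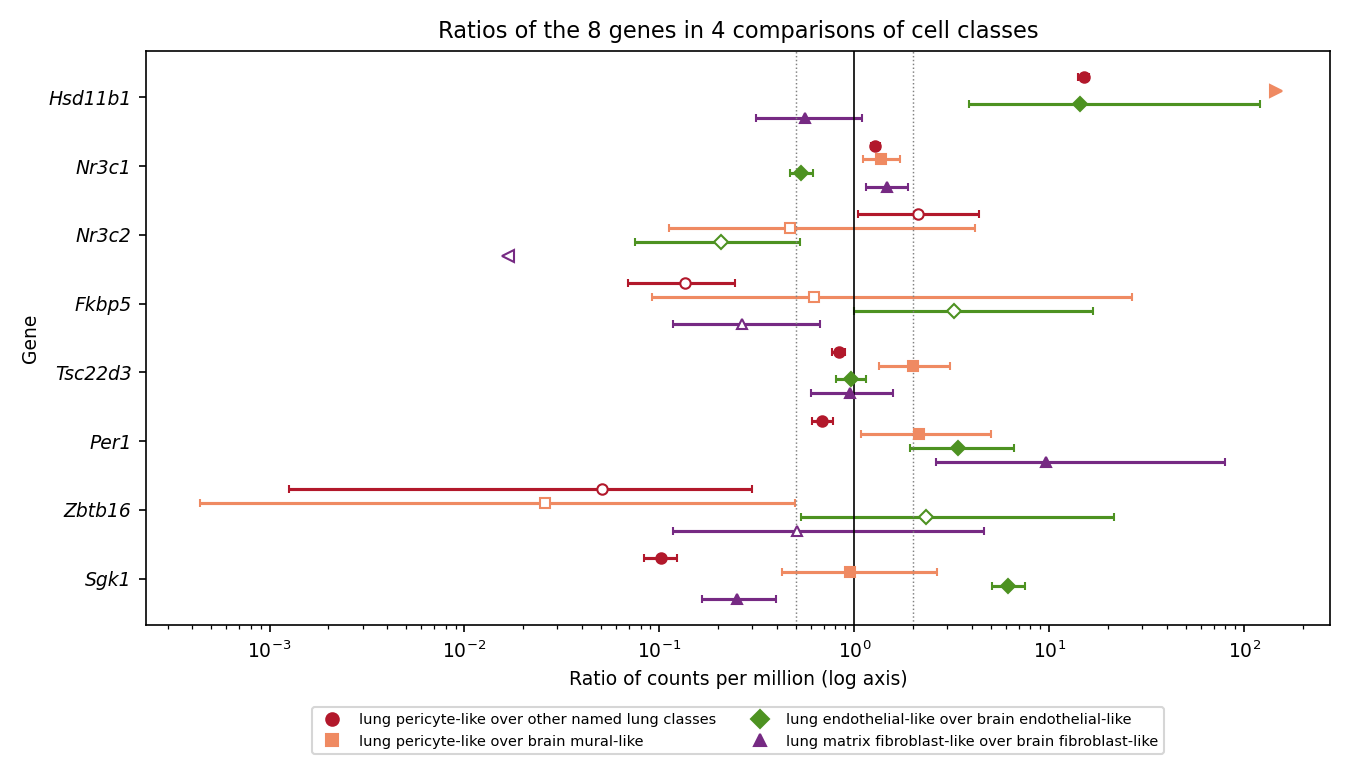
Ratio of the CPM of the 8 genes in 4 comparisons, on a log axis, with exact 95% intervals of counting error; filled symbols are genes with at least 10 CPM over both sides, open symbols lower ones, triangles pointing sideways without a bar are bounds, and dotted lines mark 2-fold. Hsd11b1 lies at 14.99 and at least 145 in the pericyte comparisons, and Sgk1 at 0.102 and 0.951.

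Read by the fold limit alone, 5 of the 8 genes had at least 10 CPM over both sides in each comparison, and Nr3c2, Fkbp5 and Zbtb16 did not. For pericyte-like over other named lung classes, Hsd11b1 was past 2-fold higher and Sgk1 past 2-fold lower, 2 of 5, while 6.95% of 9004 genes were past the limit higher, 13.9% lower and 20.8% in either direction. For pericyte-like over brain mural-like cells, Hsd11b1 and Per1 were past it higher and none lower (2 of 5), against 15.7% of 8346 genes higher, 10.7% lower and 26.4% in either direction. Hsd11b1, Per1 and Sgk1 were past it higher between the endothelial-like classes, where 12.0% of 8716 genes were higher, 9.04% lower and 21.0% past the limit in either direction. Between the fibroblast classes Per1 was higher and Sgk1 lower, where 18.0% of 8290 genes were higher, 11.4% lower and 29.5% past the limit in either direction. Since the members that passed the filter include the gene that chose the list, nothing is read from these counts. With TMM factors all ratios of pericyte-like to mural-like cells rose by 0.31 on the log2 scale, and those of the fibroblast comparison by 0.28. The share of higher genes among those past 2-fold then moved from 59.5 to 78.1% and from 61.2 to 77.3%. The factors put Sgk1 at 1.18 for pericyte-like over mural-like cells and Tsc22d3 at 1.15 in the fibroblast comparison and 1.005 in the endothelial comparison, 3 ratios just below 1 that turned to just above it. No other direction of the 8 genes turned with TMM factors. Tsc22d3 passed the limit against mural-like cells under that scaling (2.47), and Per1 fell inside it without the upper limit of genes per cell (1.76).

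The lists around the 8 genes gave the wider picture. Of the glucocorticoid machinery (15 genes: chaperones, coactivators, steroid enzymes and the efflux pump Abcb1a), 10 had at least 10 CPM in the comparison of pericyte-like with other lung classes. H6pd was past 2-fold higher, and Abcb1a, a drug and steroid exporter of endothelium, had 0 UMIs in pericyte-like cells against 339 elsewhere, 334 of them in endothelial-like cells. The other 8 were within 2-fold, with a median ratio of 1.04 against 1.01 over all genes, of which 20.8% were past 2-fold in either direction. Chaperone genes were level, with Hsp90ab1 at 1435 against 1597 CPM and Fkbp4 at 141 against 127 CPM. Against brain mural-like cells 9 passed the filter and all 9 were within 2-fold (median 1.02, as over all genes, of which 26.4% were past 2-fold).

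Other genes commonly induced by glucocorticoids (20 genes) were mixed in pericyte-like cells. Of the 13 that passed the filter against the other lung classes, 3 were past 2-fold higher: the metallothioneins Mt1 (187 against 90.0 CPM) and Mt2 (26.0 against 5.68 CPM), which bind zinc, and the sulfotransferase Sult1a1 (127 against 24.5 CPM). Another 4 were past it lower: the transcription factor Klf9 (99.3 against 237 CPM), the cell cycle inhibitor Cdkn1a (5.22 against 28.7 CPM), the mTOR inhibitor Ddit4 (6.10 against 32.6 CPM) and glutamine synthetase, Glul (42.2 against 110.0 CPM). The median ratio was 0.605, against 1.01 over all genes, of which 6.95% were past the limit higher and 13.9% lower. Against brain mural-like cells 11 passed, with the phosphatase Dusp1 and the lipase inhibitor Angptl4 higher, Klf9 lower and a median of 1.51, against 1.02 over all genes, of which 15.7% were higher and 10.7% lower. Angptl4 rested on 2 mural UMIs, and Dusp1, which is also an immediate early gene, was at 289 against 34.2 CPM.

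The immediate early and stress genes were mostly lower in pericyte-like cells than in the rest of the lung library and mostly higher than in brain mural-like cells. Against the other lung classes, 12 of 15 were past 2-fold lower in pericyte-like cells and 1 higher (Hspa1a), with a median of 0.308, beside 13.9% lower and 6.95% higher over all genes and their median of 1.01. Fos was at 423 against 1423 CPM and Egr1 at 269 against 1071 CPM. Against brain mural-like cells, 9 of 15 were past 2-fold higher and 1 lower, with a median of 2.67, beside 15.7% higher and 10.7% lower over all genes and their median of 1.02, and Fos was at 423 against 25.7 CPM. Of the clock genes, 2 of 8 were past 2-fold lower against the other lung classes (Bhlhe40 and Hlf), and 4 of 7 were lower against mural-like cells (Arntl, Cry1, Clock and Hlf), beside 13.9 and 10.7% lower over all genes. The part of immediate early expression in the levels of Tsc22d3, Sgk1 and the induced genes was not tested.

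**Figure D5:**
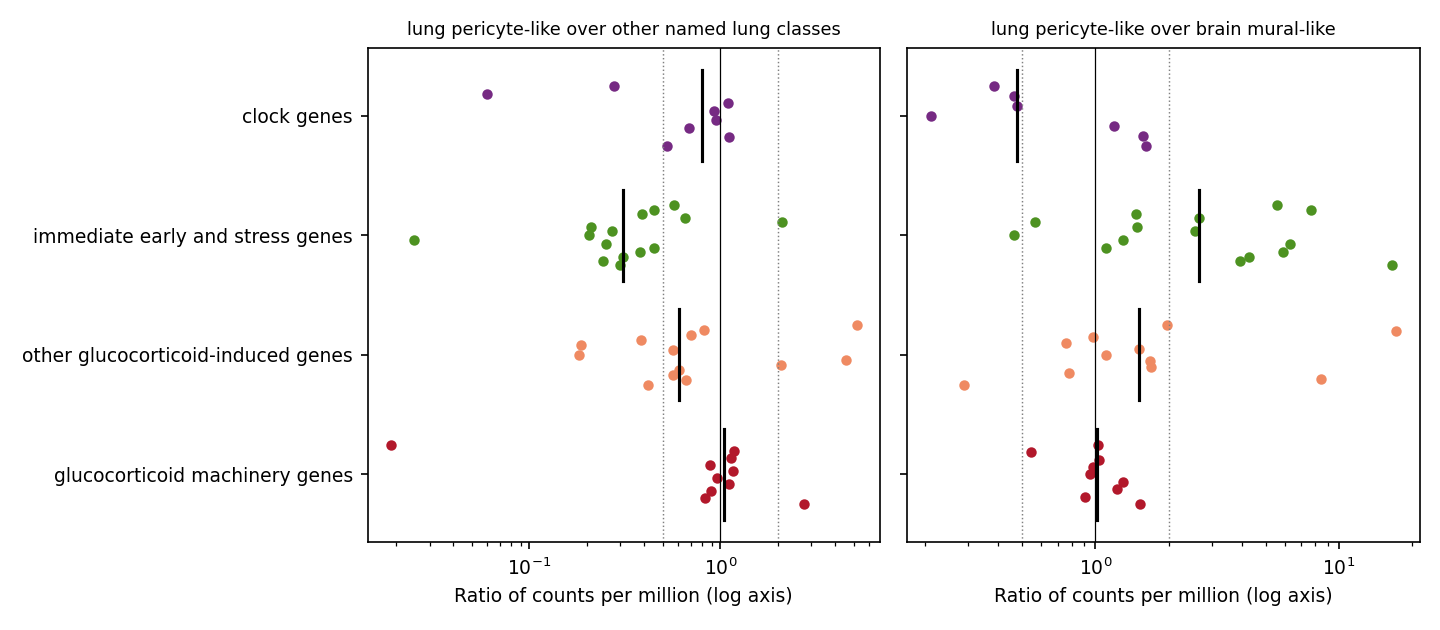
Ratios of CPM (log axis) of the genes of 4 lists with at least 10 CPM over both sides, for lung pericyte-like cells over the other named lung classes (left) and over brain mural-like cells (right). Each point is a gene, black bars are list medians, and dotted lines mark 2-fold; the machinery genes cluster around 1, and the immediate early median is 0.308 on the left and 2.67 on the right.

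The pericyte-like cells were also grouped by their Hsd11b1 UMIs into 151 cells with none, 972 with 1 to 5 and 639 with 6 or more. This split uses the value that chose the genes and sorts cells partly by depth, with medians of 3125, 4903 and 5860 UMIs, so it is a description only. In that order, Nr3c1 was at 282, 265 and 266 CPM and Per1 at 35.3, 37.4 and 36.4 CPM. Tsc22d3 was at 89.1 (65.7 to 118), 105 (95.8 to 115) and 112 CPM (101 to 123), and Sgk1 at 11.1, 12.6 and 11.9 CPM. The 3 intervals of each of these genes overlapped, as did those of H6pd (50.1, 49.8 and 47.5 CPM). Fkbp5 had 0, 5 and 7 UMIs and Zbtb16 0, 0 and 1, too few to compare.

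The genes most like Hsd11b1 across the 16 named classes with at least 50 cells were Adcy8 (Pearson's r = 0.902 of log2 levels), Angpt1 (0.850), Cpa1 (0.846), Fhod1 (0.842) and Pag1 (0.842), among 8987 genes. The pericyte-like class, whose Hsd11b1 level chose the list, weighs most in these values, so that the 5 genes peak there follows from how they were picked. Angpt1, a ligand of the endothelial receptor Tek, was at 314 CPM in that class and the adenylate cyclase Adcy8 at 248 CPM. For Fkbp5 they were Ncbp1 (0.813), E2f2, Xrcc6, Tgfbr1 and Cd68. For Zbtb16 they were Gm26601 (0.878), Tnks, Tet1, Pde4dip and Timm8b. The classes of a library share its depth and free RNA, and these values carry no p.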

How the data were processed

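The deposited values are counts of UMIs per gene and cell barcode, from 1 brain and 1 lung library made with the 10x 3′ v3 chemistry. Per the labels and the study's methods, the authors ran UMI-tools, aligned reads to mm10 with STAR 2.7.1a and assigned them with featureCounts 1.6.4. The annotation and the barcode rule are not given in the sources used here. The cell filter followed the study's methods: above 200 and below 4000 genes per cell, and mitochondrial counts under 40%. Doublets were kept in the main values (Scrublet in scanpy 1.11.5 called 1.06% of brain and 1.23% of lung cells). Each library was clustered with Seurat 5.3.0 (20 principal components, resolution 0.8). The 8 genes, the lists and a set of S and G2/M phase cell cycle genes were left out of the variable genes.

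Clusters were named by their best marker list at a score of at least 1, a lead of 0.5 and 3 markers in 20% of cells. Of 247 symbols, 241 were found. Levels are summed counts per 1000000 UMIs. Ratios have exact conditional binomial intervals, and a side at 0 was set at 3 counts. A gene counted as past the limit at 2-fold with at least 10 CPM over both sides. Ratios were checked on simulated data. Alternatives were other cell filters, resolutions 0.4 and 1.2, doublet removal, TMM factors (edgeR 4.0.16), a mean over cells and single clusters. The 8 genes and the lists were chosen with earlier results of these data known. Named genes were the 8, the list genes, cell type markers and, for 3 of the 8, the 5 genes with the most similar levels; leading genes of clusters were named after their values were seen. Cluster names were rebuilt here and may differ from those of the study.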

Additional observations from a re-analysis of the deposited data

Results flagged for a closer look

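Some classes stood in opposite order in the 2 libraries, and each difference between libraries was not tested, since each order comes from 1 library. Fibroblast-like cells of the brain held at least 5.18-fold more Hsd11b1 than brain mural-like cells (13 against 0 UMIs), whereas lung matrix fibroblast-like cells held 0.0200 of the level of lung pericyte-like cells. For Nr3c1, endothelial-like cells stood 1.48-fold above mural-like cells in the brain and at 0.578 of the pericyte-like level in the lung. For Nr3c2, the ratio of fibroblast-like to mural-like cells was 7.77 in the brain (13 and 2 UMIs), and the ratio of matrix fibroblast-like to pericyte-like cells in the lung was at most 0.280 (0 against 18 UMIs).

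Per1 was higher in 3 unnamed lung clusters, which entered no comparison as reported, than in any named class of either library. It was at 149 CPM in cluster 6 (47 UMIs, led by haemoglobin genes, median 1186 UMIs per cell) and at 180 CPM in cluster 10 (58 UMIs, with Nrxn3 and Robo2 among its leading genes, median 1712 UMIs). Cluster 9, led by surfactant genes, was at 114 CPM (49 UMIs, median 1908.5 UMIs). The part of low depth in these levels was not tested.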

How the results depend on the processing

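No paired analysis was possible because each group held 1 library and the labels give no replicate numbers. For the same reason no replicate could be left out. The Hsd11b1 ratio of pericyte-like to other named lung classes was 16.2 with called doublets removed, 13.85 without the upper gene limit, 12.9 as a mean over cells, 21.98 with no gene left out of the variable genes and 11.1 for cluster 11 alone. With alternatives chosen after seeing the data it was 52.7 without the cycling class and 14.04 with unnamed clusters added. Against mural-like cells it was at least 107.5 for cluster 11 alone. With no filter on low genes, 5 and 4 genes were past 2-fold in the 2 pericyte comparisons. The share of all genes past 2-fold without that filter is not given here, so nothing is read from these counts. The thinned share of pericyte-like cells with Hsd11b1 was 78.0% at 2000 UMIs and 91.4% unthinned. The cause of these shifts was not tested. Of the 50 values so recomputed for the main results, 38 stayed within the interval or 1.5 times the count, 12 moved and none turned direction. Of the 305 other values (ratios of single genes, counts for the endothelial and fibroblast comparisons, and shares of cells), 290 stayed and 15 moved. Of the classes in the 4 comparisons, brain mural-like and fibroblast-like cells held the fewest UMIs, and there 3 UMIs are 6.42 and 7.67 CPM.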
